A study of Danio rerio with 4 samples.

Results

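The genes described here encode heat shock proteins and other molecular chaperones, as measured in 2 mRNA libraries of zebrafish (Danio rerio) ovarian follicles. They are the protein-coding entries whose gene names begin with hsp, dnaj, cct, tcp1 or pdia, with hspa5 and hspg2 left out. These prefixes caught 101 gene names, of which 80 reached 1 FPKM (fragments per kilobase of transcript, scaled to the mapped fragments of the library) in at least 1 library, out of 13435 protein-coding names that did so. The 21 that did not were 8 small heat shock protein genes, 3 HSP70 genes, 1 HSP110 gene, 4 type B and 4 type C J protein genes, and tcp10. The pre-vitellogenic library came from follicles about to take up yolk, and the primary growth library from the smaller follicles of the stage before. Fish of the AB strain, 3 months old, gave the ovaries, follicles were picked by their size and look, and each stage gave 1 mRNA library. The labels do not say how many fish contributed to a library. With 1 library per stage there is no replicate check, so no difference below was tested, and all are descriptions of these 2 libraries.

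Chaperones bind unfolded or partly folded proteins and help them fold, assemble, cross membranes or be degraded. HSP70 proteins hold and release short stretches of their clients in cycles driven by ATP. J proteins deliver clients and start the ATP step, exchange factors such as HSP110 end it, and HSP90 takes over clients such as kinases and steroid receptors. Chaperonins enclose a protein in a chamber, the ring of CCT subunits in the cytosol serving actin and tubulin. Protein disulfide isomerases form and rearrange disulfide bonds in the endoplasmic reticulum (ER). The growing oocyte makes large amounts of secreted egg coat protein and stores RNA and protein for the embryo.

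The deposited table is in FPKM, so levels of different genes are per length of transcript, and the number of reads behind them is unknown. Differences are given as the log2 of pre-vitellogenic over primary growth FPKM after adding 1 FPKM to each, a scale that understates the difference of low genes, and a gene counts as 2-fold higher or lower at a difference of 1 or more in size on it. Over the 13435 protein-coding names the median difference was 0.52, so chaperone genes are to be read against a shift toward the pre-vitellogenic library. Of 9 oocyte marker genes 8 were found, and they summed to 1680 FPKM in pre-vitellogenic and 3499 FPKM in primary growth follicles. The lower sum came from zp3b, zar1, buc and zp2.1, while vasa was at 174 FPKM in pre-vitellogenic and 79.4 FPKM in primary growth follicles, gdf9 at 62.2 and 56.4 FPKM, and bmp15 at 114 and 117 FPKM. Markers of granulosa and theca cells, smooth muscle and vessels summed higher in pre-vitellogenic follicles, while those of leukocytes and erythrocytes did not. All 8 granulosa and theca markers were found and summed to 18.2 FPKM there and 2.92 FPKM in primary growth follicles, where fshr was listed at 0, and 3 of 4 smooth muscle markers to 28.0 and 4.84 FPKM. In the same order, 3 of 4 vessel markers summed to 7.40 and 2.19 FPKM, 4 of 6 leukocyte markers to 2.52 and 3.24 FPKM, and 2 of 4 erythrocyte markers to 52.4 and 55.2 FPKM. The lower leukocyte sum came from coro1a (0.748 and 2.28 FPKM), while ptprc was at 1.32 and 0.616 FPKM, lcp1 at 0.289 and 0.170 FPKM and mpx at 0.171 and 0.174 FPKM. The erythrocyte sum was nearly all hbaa1 (51.6 and 55.1 FPKM), while alas2 was at 0.744 and 0.0347 FPKM. The part of these cell types in the differences below was not tested. In such bulk libraries fewer cells of a type and less RNA per cell cannot be told apart.

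Among the 80 genes, the 3 most abundant in primary growth follicles were hsp90ab1, hspa8 and hsp90b1. These 3 were at lower FPKM in pre-vitellogenic follicles under every scaling tried, though only hsp90ab1 passed 2-fold as deposited. They were picked by their primary growth level, a choice that by itself leans toward lower values in the other library. In pre-vitellogenic follicles pdia4 (422 FPKM) stood above hsp90b1 (379 FPKM). All protein-coding names that reached 100 FPKM in at least 1 library had a median difference of -0.37. In the pre-vitellogenic library 15 of the 80 genes were at least 2-fold higher, which is 18.8% against 29.5% of all protein-coding names. The 1 lower gene, hsp90ab1, is 1.25% against 5.42%. The median difference of the 80 genes was 0.26, with 54 above 0 and 26 below, that is 67.5% above 0 against 71.3% of all protein-coding names. Since the libraries have no common standard, 5 other scalings were computed, and the median of the 80 genes was negative under 3 of them. After centring on 0.44, the median difference of names that reach 1 FPKM in each library, it was -0.18, with 6 genes higher and 8 lower against a background of 14.9% and 12.3%. When both libraries were set to an equal FPKM total it was 0.47, with 23 genes higher and 0 lower against 38.5% and 3.33%. With the trend of difference on transcript length removed it was -0.16, with 7 higher and 6 lower against 12.2% and 7.96%. It was -0.28 with the 75th percentile as scale and 0.54 with an equal total that leaves out mitochondrially encoded genes. Across all of these, 25 of the 80 genes lay above 0 and 14 below 0 as deposited and under all 5 scalings, while the sign of the other 41 depended on the scaling. Only pdia2, dnajc27 and DNAJC14 were at least 2-fold higher under every one of them, and none was 2-fold lower throughout. These counts across scalings were not made for all protein-coding names, so they describe the 80 genes only and have no background to be read against.

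**Figure D1:**
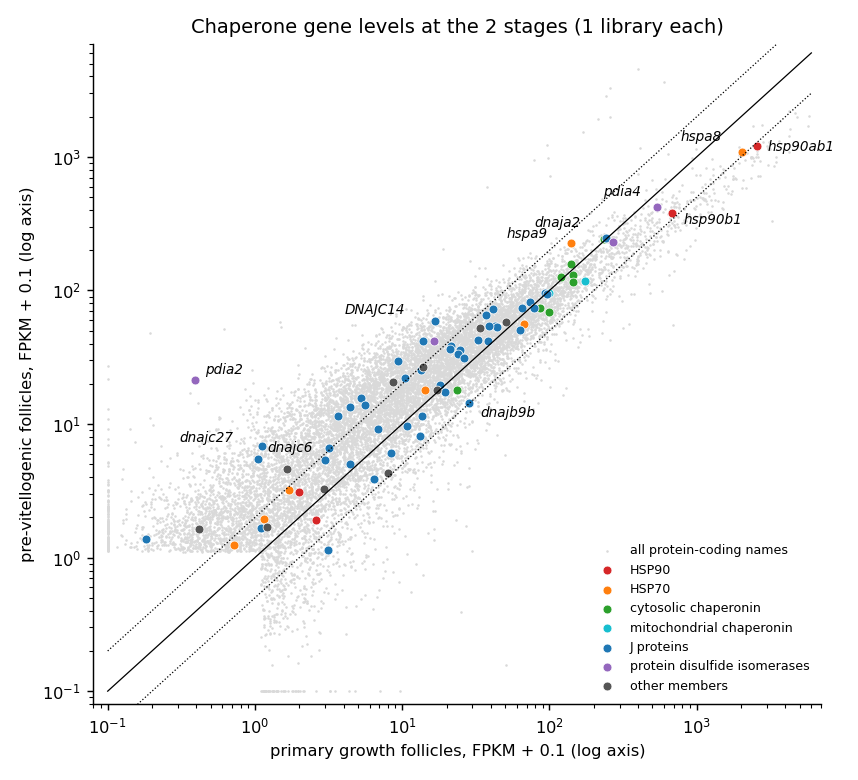
Each coloured point is 1 chaperone gene, with its FPKM + 0.1 in primary growth follicles on the horizontal and in pre-vitellogenic follicles on the vertical log axis, over all protein-coding names in grey. The solid line marks equal levels and the dotted lines 2-fold ratios. The genes at the upper right, hsp90ab1, hspa8 and hsp90b1, lie below the line of equal levels, and pdia2 lies far above it.

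Differences varied with level. The 13 genes that reached 100 FPKM in at least 1 library had a median difference of -0.21, with 5 above 0, none 2-fold higher and 1 lower, and their median was 0.05 with an equal FPKM total. Among all protein-coding names of that level the median was -0.37, with 5.79% higher and 19.97% lower. The 35 chaperone genes between 20 and 100 FPKM had a median of 0.38, against 0.52 for all names in that range. They varied with transcript length too. The 18 genes whose transcripts measured 2400 bases or more had a median of 0.74, against 1.04 for all names of that length. Those of 1500 to 2400 bases, 35 in number, had a median of 0.12 against 0.49. Under 1500 bases the order was the other way, with a median of 0.12 for 27 chaperone genes against 0.01 for all names. Across the 80 genes Spearman's rho between length and difference was 0.31, and across all protein-coding names 0.47, a description of genes that share 2 libraries.

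All chaperone genes together made up 1.099% of the FPKM total in the pre-vitellogenic library and 1.24% in the primary growth library. A large share of this came from hsp90ab1, hspa8 and hsp90b1. These 3 genes held 40.2% of the chaperone FPKM in pre-vitellogenic and 58.3% in primary growth follicles. In coding transcripts alone they summed to 1785 of 5512 FPKM in pre-vitellogenic and 3252 of 6796 FPKM in primary growth follicles. Without these 3 genes the remaining 77 made up 0.657% and 0.517% of the totals, which turned the order of the stages round. The 3 were left out after seeing the data, and each was lower in pre-vitellogenic follicles, so leaving them out moves the order by construction. With an equal FPKM total the median difference of all protein-coding names was 0.74. The 45 J protein genes held 24.5% of the chaperone FPKM in pre-vitellogenic and 14.6% in primary growth follicles.

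**Figure D2:**
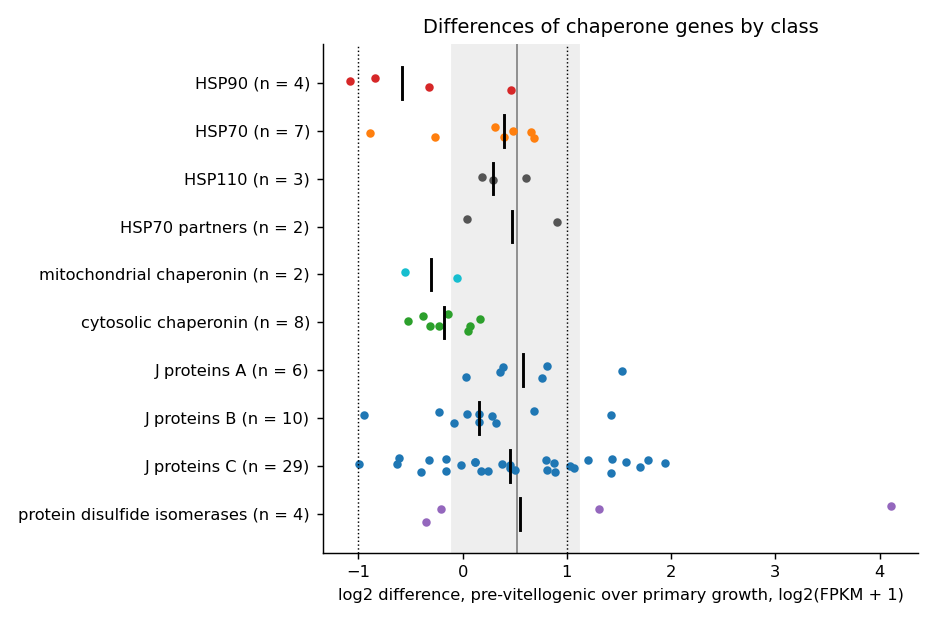
Each point is 1 gene, placed by its difference (pre-vitellogenic over primary growth, log2 of FPKM + 1), in rows by chaperone class with the class median as a black bar. The grey band spans the quartiles of all protein-coding names, -0.11 to 1.11, around their median of 0.52, and dotted lines mark 2-fold. The medians of HSP90 and of both chaperonin classes lie left of the band. The row of HSP70 partners holds hspbp1 and hspbap1, put together by name.

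HSP90 genes were the lowest class, with a median of -0.59 over 4 genes that stayed negative under all 5 scalings, from -1.09 to -0.30. The gene hsp90ab1 (chromosome 20, 51532469 to 51546551 on the Zv9 build), the constitutive cytosolic HSP90, was at 1212 FPKM in pre-vitellogenic and 2570.5 FPKM in primary growth follicles, a difference of -1.08. It ranked 24 and 28 by FPKM among all protein-coding names in the pre-vitellogenic and primary growth libraries. Most of that level belonged to a single short transcript, marked as a retained intron in the table, of 511 bases (chromosome 20, 51536529 to 51537520). This transcript was at 902 FPKM in pre-vitellogenic and 2026 FPKM in primary growth follicles, 74.4% and 78.8% of the gene's sum. The coding transcripts of hsp90ab1 alone summed to 310 and 544 FPKM, and their difference of -0.81 did not reach 2-fold. The bounds deposited for its coding transcript of 3386 bases ran from 0 to 471 FPKM in pre-vitellogenic and from 0 to 1152 FPKM in primary growth follicles, and so overlapped widely.

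The ER member hsp90b1 (chromosome 4, 8898701 to 8906072), also known as GRP94, has 1 transcript in the table. It was at 379 FPKM in pre-vitellogenic and 681 FPKM in primary growth follicles, a difference of -0.84. The inducible cytosolic genes hsp90aa1.1 and hsp90aa1.2, which lie next to each other on chromosome 20, were rare. The gene hsp90aa1.1 was at 2.995 FPKM in pre-vitellogenic and 1.90 FPKM in primary growth follicles, mostly from a noncoding transcript of 283 bases. Its neighbour hsp90aa1.2 was at 1.80 and 2.51 FPKM. Reads of such similar neighbours may be split between them in ways the table does not show.

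**Figure D3:**
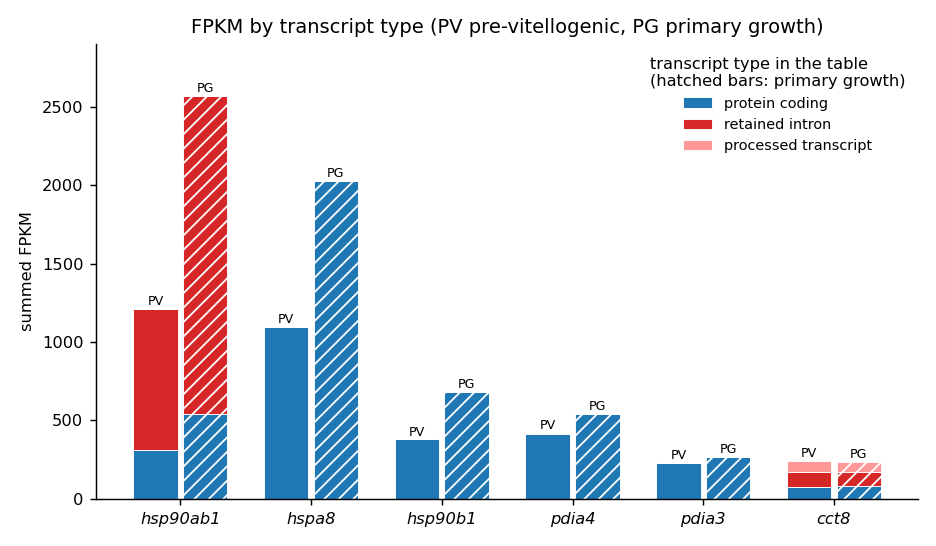
Bars give summed FPKM of 6 abundant chaperone genes, plain for pre-vitellogenic (PV) and hatched for primary growth (PG) follicles, coloured by the transcript type named in the table. Retained intron rows make up most of hsp90ab1, and such rows with processed transcripts most of cct8, while the other 4 genes are nearly all coding.

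HSP70 genes ranged more widely. The constitutive cytosolic gene hspa8 (chromosome 10, 30757254 to 30761585) was at 1096 FPKM in pre-vitellogenic and 2026 FPKM in primary growth follicles, a difference of -0.89. All 3 of its transcripts are marked as coding, and each was lower in the pre-vitellogenic library. In the opposite direction, hspa9, which encodes mortalin, the HSP70 of mitochondria, was at 226 FPKM in pre-vitellogenic and 141 FPKM in primary growth follicles (difference 0.68). Its coding transcript alone was at 176 and 118 FPKM (difference 0.58), and a retained intron row held the rest. The gene hspa13, for an HSP70 relative of the ER, was at 17.95 and 14.2 FPKM. Its coding transcript was at 16.8 and 9.33 FPKM, the rest being a retained intron row that was higher in primary growth follicles. The gene hspa14, known in mammals for a ribosome-bound HSP70, was at 55.7 and 67.4 FPKM.

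Stress-inducible HSP70 genes were near the lower limit in both libraries. The gene hsp70l was at 1.86 FPKM in pre-vitellogenic and 1.05 FPKM in primary growth follicles, and hsp70.3 at 1.13 and 0.617 FPKM, the lowest gene to enter the list. Just outside it stood HSPA4L at 0.781 and 0.900 FPKM and dnajc5b at 0.162 and 0.829 FPKM. The inducible genes hsp70l and hsp70.3 may share reads, and the split between them is uncertain, as their sequences were not compared here. As deposited 0 of 7 HSP70 genes passed the 2-fold rule, against 29.5% higher and 5.42% lower among all protein-coding names. Under other scalings hspa8 was 2-fold lower in 3 of 5 (-1.43 to -1.32), and hspa9, with its retained intron row counted, 2-fold higher in 1 (1.02). The class median of 0.40 over 7 genes became -0.04 after centring and -0.17 with the length trend removed. As deposited this median is the value of hsp70.3, a gene near the lower limit. Also low was HSPA8 (1 of 2), at 3.10 and 1.61 FPKM. Over HSP70 genes at 5 FPKM or more the median was 0.02.

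The genes for nucleotide exchange factors of HSP70 that the prefixes caught were above 0 as deposited. None of these then passed the 2-fold rule, against 29.5% higher and 5.42% lower among all protein-coding names. The exchange factor gene bag5, from the separate list of co-chaperones given below, was 2-fold higher (difference 1.65). The HSP110 gene hspa4a was at 52.0 FPKM in pre-vitellogenic and 33.8 FPKM in primary growth follicles (difference 0.61), and its paralog hspa4b at 57.5 and 50.4 FPKM (difference 0.19). The gene hsph1 was at 1.59 and 1.12 FPKM. Their median of 0.29, the value of the rare hsph1, was negative after centring, 75th percentile scaling and removal of the length trend. Over HSP110 genes at 5 FPKM or more the median as deposited was 0.40. The exchange factor gene hspbp1 was at 26.7 and 13.8 FPKM, a difference of 0.91 that was above 0 under all scalings and past 2-fold only with either equal FPKM total. The gene hspbap1, placed in a class with hspbp1 by its name and not as an exchange factor, was at 17.8 and 17.3 FPKM.

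As deposited, no chaperonin gene passed the 2-fold rule, against 29.5% higher and 5.42% lower among all protein-coding names. Most chaperonin genes reached 100 FPKM, and among all names of that level 5.79% were higher and 19.97% lower. The 8 subunits of the cytosolic ring, tcp1 and cct2 to cct8, stand in it in equal numbers. Their differences ran from -0.53 for cct4 to 0.16 for cct3, with a median of -0.18 that became 0.08 with an equal FPKM total and 0.16 with mitochondrially encoded genes left out of it. It was -0.62 after centring, -0.73 with the 75th percentile as scale and -0.47 with the length trend removed, and cct4 was 2-fold lower with the 75th percentile as scale (-1.07). Summed over coding transcripts they held 764 FPKM in pre-vitellogenic and 833 FPKM in primary growth follicles. In coding transcripts cct3 was at 155 and 140 FPKM, cct6a at 131 and 145 FPKM, cct5 at 125 and 119 FPKM and cct7 at 114 and 141 FPKM. Lower among them stood cct8 at 79.0 and 80.4 FPKM, tcp1 at 73.2 and 85.7 FPKM and cct4 at 68.3 and 98.9 FPKM. The gene cct2 was at 17.9 and 23.6 FPKM (its transcript has 912 bases), and a second gene ID, named CABZ01073085.1 in the table and cct2 in the current symbols, held 19.0 and 20.9 FPKM more. With its short noncoding transcripts included cct8 had the highest level of the 8 in both libraries, 242 and 234 FPKM.

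The mitochondrial chaperonin is formed by HSP60, encoded by hspd1, and its lid HSP10, encoded by hspe1. The genes lie head to head on chromosome 9, hspd1 on the minus strand ending at 33334091 and hspe1 on the plus strand starting at 33334325, 234 bases further on. The level of hspd1 was 118 FPKM in pre-vitellogenic and 174 FPKM in primary growth follicles (difference -0.56), and that of hspe1 95.2 and 98.99 FPKM (difference -0.06). The difference of hspd1 was below 0 under all scalings and past 2-fold under 2 of them, -1.10 with the 75th percentile as scale and -1.20 with the length trend removed. As deposited, hspa9 lay above 0 and these 2 genes, whose products also work in the mitochondrial matrix, below it, but hspe1 and hspa9 change sign with the scaling.

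**Figure D4:**
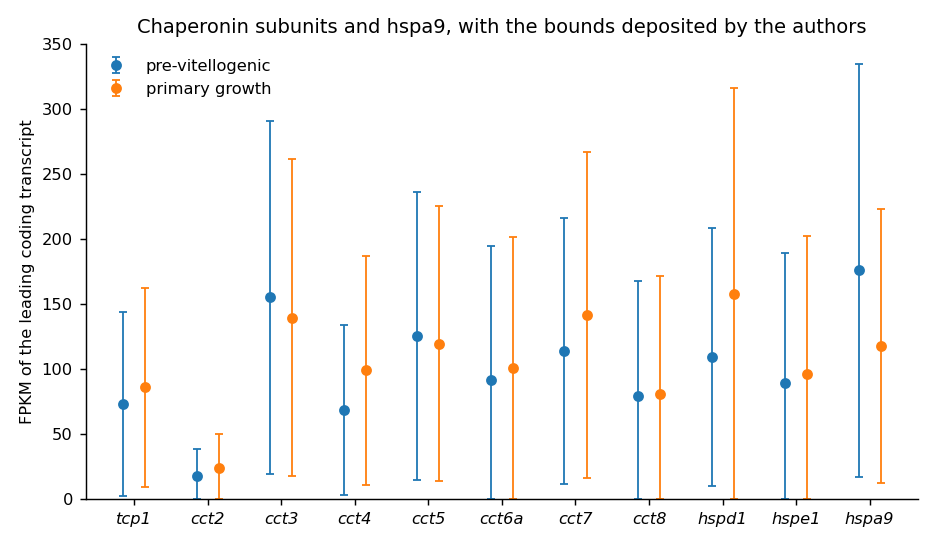
Points give FPKM of the leading coding transcript of the 8 cytosolic chaperonin subunits, the mitochondrial pair hspd1 and hspe1, and hspa9, pre-vitellogenic left of primary growth. Bars are the lower and upper bounds deposited by the authors. For every gene shown the bounds of the stages overlap.

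J protein genes were the largest class, and 34 of 45 lay above 0, which is 75.6% against 71.3% of all protein-coding names. As deposited 11 were at least 2-fold higher, which is 24.4% against 29.5%, and none was lower. Their median of 0.38, under the 0.52 of all names, was -0.06 after centring and -0.10 with the 75th percentile as scale. The 6 type A genes, built like the founding bacterial J protein, were all above 0, with a median of 0.58 that stayed above 0 under every scaling. The gene dnaja2l (chromosome 18, 5943008 to 5955293) was at 41.6 FPKM in pre-vitellogenic and 13.7 FPKM in primary growth follicles (difference 1.53), and fell short of 2-fold, at 0.77, with the length trend removed. Its paralog dnaja2 was the most abundant J protein gene and was near level, at 247 and 242 FPKM. The cytosolic dnaja1 was at 36.5 and 21.1 FPKM, and the mitochondrial genes dnaja3a and dnaja3b at 38.4 and 21.5 FPKM and at 9.07 and 6.70 FPKM.

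Among the 10 type B genes the median was 0.15, negative after centring, 75th percentile scaling and removal of the length trend. A pair of paralogs that encode ERdj4, a J protein of the ER made under folding stress, lay on opposite sides. The gene dnajb9a was at 13.3 FPKM in pre-vitellogenic and 4.34 FPKM in primary growth follicles (difference 1.42), and dnajb9b at 14.3 and 28.5 FPKM (difference -0.95). In primary growth follicles dnajb9b was thus the more abundant of the pair, and in pre-vitellogenic follicles their levels were close. The partners of cytosolic HSP70 in refolding, dnajb1b and dnajb1a, were at 95.8 and 93.0 FPKM and at 11.5 and 13.6 FPKM. The coding transcript of dnajb1b alone was at 66.2 and 58.1 FPKM. The gene dnajb6a, which encodes a suppressor of aggregation, was at 53.7 and 42.8 FPKM, and the ER membrane gene dnajb12b at 5.28 and 2.91 FPKM.

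Type C, which gathers J proteins of many shapes, held 9 of the 11 higher genes among 29 members, 31.0% against 29.5% of all protein-coding names. Its median of 0.46 was -0.07 with the 75th percentile as scale and above 0 under the other scalings. The gene dnajc27, for a Rab-like GTPase with a J domain, was at 6.79 FPKM in pre-vitellogenic and 1.02 FPKM in primary growth follicles, a difference of 1.94. DNAJC14, known in mammals for an ER membrane protein, was at 59.2 and 16.6 FPKM (difference 1.78) from a transcript model of only 459 bases. The auxilin gene dnajc6, whose product uncoats clathrin vesicles, was at 5.35 and 0.955 FPKM (difference 1.70), and DNAJC16 (2 of 2) at 29.4 and 9.27 FPKM (difference 1.57). With the length trend removed both were short of 2-fold, at 0.49 for dnajc6 and 0.89 for DNAJC16 (2 of 2). The most abundant gene of the type, dnajc1 of the ER membrane, was at 94.2 and 95.6 FPKM. Its difference was -0.02 as deposited and ran from -0.57 to 0.32 under the scalings. The lowest difference was that of dnajc4, -0.99, at 1.03 and 3.04 FPKM, near the lower limit. In coding transcripts alone dnajc4 was at 1.03 and 1.97 FPKM. That difference of -0.55 is smaller in size than those of dnajc24 (-0.63) and DNAJC30 (-0.61).

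**Figure D5:**
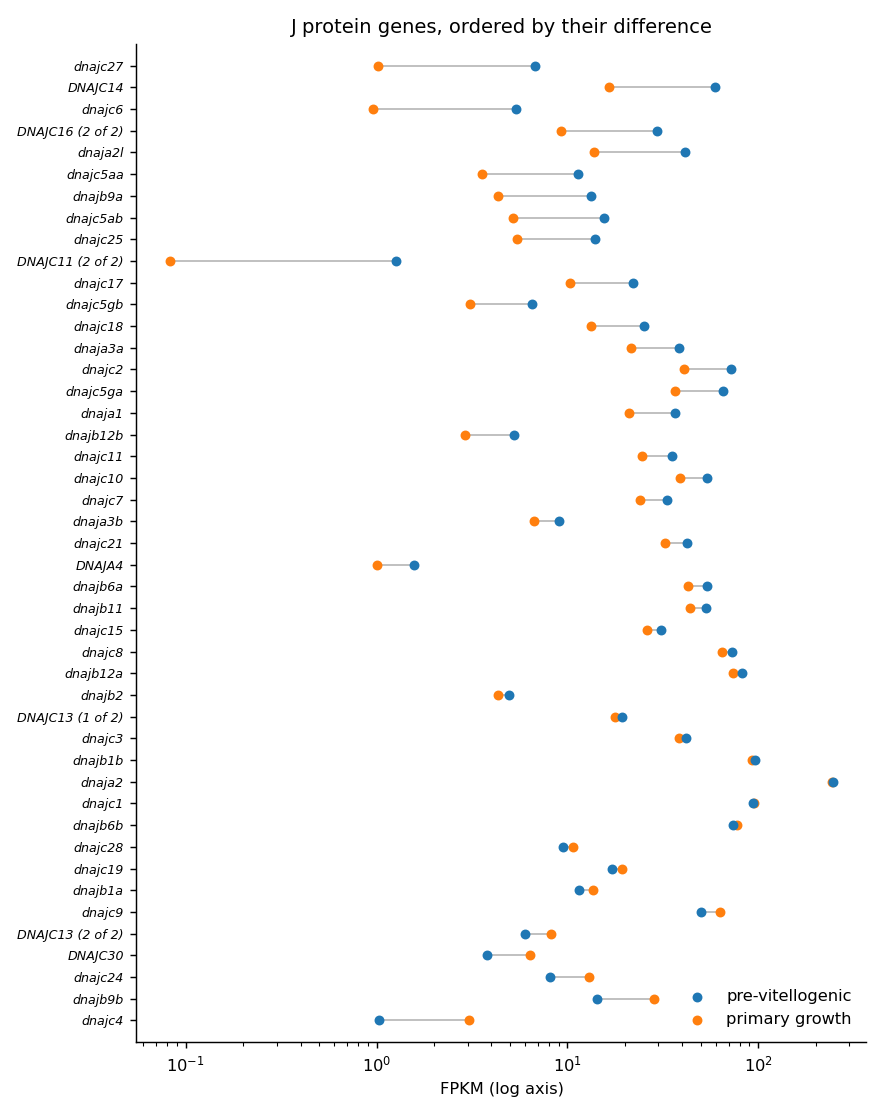
Each row is 1 of the 45 J protein genes, with its FPKM in pre-vitellogenic (blue) and primary growth (orange) follicles on a log axis, ordered by difference. The blue point lies right of the orange one in 34 rows, and only dnaja2 reaches 100 FPKM.

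When chaperone genes were sorted by where their products work, a grouping made with the values known, genes of vesicles and endosomes had the highest median. Their 7 genes had a median of 0.88, above 0 under all 5 scalings (0.31 to 1.16), and 3 passed the 2-fold rule, 42.9% against 29.5% of all protein-coding names. That count was 1, or 14.3%, after centring, with the 75th percentile as scale and with the length trend removed, against 14.9%, 15.4% and 12.2% of all names. The median transcript length of the 7 genes was 2538 bases, with a range from 594 to 6033 bases. All names of 2400 bases or more had a median of 1.04, with 51.9% higher. All names under 1500 bases had a median of 0.01, with 15.5% higher. With the length trend removed the median of the 7 genes was 0.31, against 0.03 for all names. The 3 genes past 2-fold as deposited were dnajc6 and the paralogs dnajc5aa and dnajc5ab. These paralogs encode cysteine string protein, a chaperone of vesicle release, and were at 11.4 and 3.59 FPKM and at 15.5 and 5.18 FPKM. The related genes dnajc5ga and dnajc5gb were at 65.0 and 36.8 FPKM and at 6.56 and 3.10 FPKM, short of 2-fold. The 10 mitochondrial genes had a median of 0.31 with 1 higher, the 6 of ribosome and nucleus 0.28 with 1 higher, and the 14 of the ER 0.22 with 3 higher. These are 10.0%, 16.7% and 21.4%, each under the 29.5% of all names. Many genes were placed in no group, among them dnajc25 and DNAJC16 (2 of 2), both 2-fold higher as deposited. The shares thus depend on the sorting. DNAJC14 was left out of the ER genes, and with it, an alternative added after seeing the data, 4 of 15 were higher and the median was 0.28. The sign of the mitochondrial, ribosomal and ER medians depended on scaling, turning negative after centring and 75th percentile scaling. With the length trend removed the ER median was -0.33 and the mitochondrial one -0.09, while that of ribosome and nucleus was 0.07.

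Protein disulfide isomerases held the most extreme gene. The gene pdia2 (chromosome 1, 9030573 to 9040849), known in mammals mainly from pancreas, was at 21.3 FPKM in pre-vitellogenic and 0.289 FPKM in primary growth follicles, a difference of 4.11 that ran from 3.68 to 4.32 under the scalings. Its transcript of 1845 bases was at 19.9 FPKM in pre-vitellogenic follicles, with deposited bounds of 0 and 42.2 FPKM, while its upper bound in primary growth follicles was 0.0711 FPKM. With a lower bound of 0 in pre-vitellogenic follicles the bounds overlapped even here. The gene pdia5 was at 41.8 and 16.4 FPKM (difference 1.30), at least 2-fold higher as deposited but at 0.39 with the length trend removed. The abundant isomerases pdia4 and pdia3 did not pass the 2-fold rule, at 422 and 540 FPKM and at 232 and 268 FPKM. The product of pdia3 works on glycoproteins with calnexin and calreticulin. The isomerase PDIA6, named pdip5 in the table and so not counted among the 80 genes, was at 79.4 and 53.7 FPKM.

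Small heat shock proteins, which keep unfolded proteins from aggregating without ATP, were rare. Of 9 hspb genes, with the entries named hspb11 set apart, only hspb1 passed 1 FPKM. It was at 3.17 FPKM in pre-vitellogenic and 2.86 FPKM in primary growth follicles, and 6 were listed at 0 in both libraries. The entries HSPB11 and hspb11 are different genes, the upper-case one sharing its name with a mammalian protein of cilia. They were at 4.16 and 7.88 FPKM and at 1.54 and 0.314 FPKM. The lower-case hspb11 carries hspb9l as its current symbol, the name of a small heat shock protein gene. It thus also passed 1 FPKM, with a difference of 0.95 that was above 0 under all scalings. The prefix tcp1 also caught tcp11l1 (20.4 and 8.58 FPKM) and tcp11l2 (4.47 and 1.54 FPKM), which are not chaperone genes by name. Both are among the 15 higher genes. Without them 13 of 78 genes were higher, 16.7% against 29.5% of all protein-coding names. The 78 still include the upper-case HSPB11.

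Co-chaperones and regulators that the prefixes do not catch were taken from a separate list of 81 names, 69 of which were found and 64 at 1 FPKM or more. Of these 12 were at least 2-fold higher and 1 lower, 18.8% and 1.56% against 29.5% and 5.42% of all protein-coding names, with a median of 0.297 that became -0.14 after centring, -0.22 with the 75th percentile as scale and -0.03 with the length trend removed. The higher genes included bag5, an exchange factor of HSP70 (41.7 FPKM in pre-vitellogenic and 12.6 FPKM in primary growth follicles), and stub1, which encodes a ubiquitin ligase that takes clients from HSP70 and HSP90 (29.8 and 11.1 FPKM). The gene txnip, named txnipa in the table and encoding a thioredoxin-binding protein, was at 20.4 and 7.16 FPKM. The lower gene was hsbp1b, for a protein that binds heat shock factor (40.9 and 86.6 FPKM). Next to it, short of 2-fold, stood naca, a chaperone of nascent chains at the ribosome (185 and 366 FPKM), and p4hb, the founding protein disulfide isomerase (452 and 854 FPKM). Heat shock factor genes, named after their values were seen, were at 22.9 and 8.94 FPKM for hsf1 (difference 1.27) and 107 and 68.8 FPKM for hsf2 (difference 0.64), and the HSP90 partner stip1 at 104 and 55.2 FPKM (difference 0.90).

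Several of the genes named share their place with another gene: hspa4a, dnaja2l, dnajb6a, dnajb1b, cct6a and cct7 overlap one on the opposite strand, hsp70.3 and dnaja3b one on the same strand, and dnajb12b one as well. No label says whether the authors' counting used strand, so reads of such pairs may not be told apart.

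The uncertainty that the authors deposited with each transcript is wide. Of 127 transcripts of the 80 genes at 1 FPKM or more, none had bounds that separated the stages, and for 95 both lower bounds were 0. Among all 20810 protein-coding transcripts of that level 6 had bounds that did not overlap, and for 17609 both lower bounds were 0.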

How the data were processed

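Follicle RNA was sequenced as paired ends on an Illumina HiSeq, per the labels' protocols, with 1 mRNA library for each of 2 stages. Every sample title reads PG, so stages came from the cell type labels, and the PG and PV columns were matched to them by the abbreviations of the labels' protocols. The authors deposited FPKM per Ensembl transcript, with lower and upper bounds. Per the submitters' processing notes, which give no roles, the build was Zv9 and the tools included Cufflinks 2.2.1 and TopHat2 2.0.11. Read depth is unknown, so no counting interval is given.

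FPKM of transcripts of protein-coding genes were summed by gene name with pandas 2.3.3. Of 8316 transcripts without a gene biotype, which were not used, 1 carried a chaperone name (dnajb9b, under 1 FPKM). Names reaching 1 FPKM in either library were compared on the log2(FPKM + 1) scale with a 2-fold mark, by code checked on simulated data. With 1 library per stage no test was run. A gene's length is the mean of its transcripts weighted by FPKM. Named were, per class, the 4 largest differences at 5 FPKM or more and the most abundant gene, a fixed set of genes, and 3 co-chaperones per direction. Other genes named were chosen after their values were seen. The members and lists were chosen with earlier results of these data known. Alternatives changed the pseudocount, filter, scaling, summing and fold mark. A planned search of promoters was not run, as no sequences were used here. Small RNA libraries were not analysed here.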

Additional observations from a re-analysis of the deposited data

How the results depend on the processing

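The 15 genes at least 2-fold higher became 6 with a pseudocount of 5 FPKM, 6 after centring, 6 with 75th percentile scaling, 7 with the length trend removed and centring, 23 with an equal FPKM total, 24 with mitochondrially encoded genes left out of that total, 27 at a 1.5-fold mark and 4 at a 3-fold mark. Over the same settings the co-chaperone list, with 12 higher, had 6, 2, 2, 2, 17, 18, 22 and 1. The count of higher genes among all protein-coding names moved in the same direction at each of these settings. From 29.5% as deposited their share became 14.9% after centring, 15.4% with 75th percentile scaling and 12.2% with the length trend removed. It became 38.5% with an equal FPKM total and 41.3% with mitochondrially encoded genes left out of that total. The single lower gene became 2 with a pseudocount of 0.1 FPKM, 8 after centring, 10 with 75th percentile scaling, 6 with the length trend removed, 8 at a 1.5-fold mark, and 0 with either equal total, at a 3-fold mark and with coding transcripts only, the last an alternative chosen after seeing the data. In the co-chaperone list the 1 lower gene became 0 with a pseudocount of 5 FPKM, with either equal total and at a 3-fold mark, 8 after centring, 9 with 75th percentile scaling, 3 with the length trend removed, 2 with the most abundant transcript only and 8 at a 1.5-fold mark. Without hsp90ab1, hspa8 and hsp90b1, also chosen after seeing the data, the share of all FPKM was 0.657% in pre-vitellogenic and 0.517% in primary growth follicles. For all chaperone genes together the share was 0.906% and 0.931% with coding transcripts only, against 1.099% and 1.24% with all transcripts. For lower genes too, the count among all protein-coding names moved in the same direction at each setting given above. From 5.42% as deposited their share became 12.3% after centring, 13.0% with 75th percentile scaling and 7.96% with the length trend removed. It became 3.33% with an equal FPKM total and 2.83% with mitochondrially encoded genes left out of that total. The median of the 80 genes lay between -0.28 and 0.54 over all settings. The cause was not tested beyond the construction of each setting. No paired analysis was possible because each stage has 1 library. Depth is unknown, and single libraries limit every value here.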

Other observations

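The table holds 9 gene IDs whose current symbols begin with the chaperone prefixes but which it lists under other names. Besides PDIA6 and the second cct2, the isomerase pdia7, listed as zgc:77086, was at 57.4 FPKM in pre-vitellogenic and 24.7 FPKM in primary growth follicles, a difference of 1.18. The ER J protein gene dnajc3b, listed as prkri, was at 4.86 and 2.40 FPKM, and its paralog dnajc3 at 41.7 and 38.4 FPKM. The HSP70 gene hspa1b, listed as si:ch211-199o1.2, was at 2.04 and 2.13 FPKM, as low as the named inducible HSP70 genes. The HSP70 relatives hspa12a.1 and hspa12a.2 and the isomerase pdia8 stayed under 1 FPKM in both libraries. An ID listed as mcm5, a replication gene, carries hsp70.1 as its current symbol and was at 6.79 and 3.82 FPKM, so which gene it measures is uncertain.

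The split of FPKM among transcripts differed between the libraries for some genes, chosen after their values were seen. In dnajc6 the transcript of 7250 bases held 62.0% of the gene's FPKM in pre-vitellogenic and 25.5% in primary growth follicles, where the transcript of 4456 bases held 74.5%. In dnajc5ga the transcript of 2555 bases held 48.7% in pre-vitellogenic and 73.6% in primary growth follicles. In pdia2 the transcript of 1845 bases held 93.5% in pre-vitellogenic follicles, while nearly all of the low primary growth level was given to the other transcript. The bounds of these transcripts overlapped between the stages.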
